A study of Mus musculus with 4 samples.

Results

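The genes described are those of the creatine kinase and AMP deaminase systems, with adenylate kinase and the creatine transporter. They were chosen by symbol from a list of 8 genes, of which the 5 found in the count table, Ampd2, Ampd3, Ckb, Ak1 and Slc6a8, are described out of 13825 genes. Ampd1, Ckm and Ckmt2 were not analysed here. All 5 genes passed the filter on low counts (a mean of 10 or more over the libraries), as did 13084 genes in all.

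The samples were tibialis anterior (TA) muscles of adult male mice, taken on day 14 after surgery. WT mice were C57BL/6J, and Fgf21KO mice lacked the hormone gene Fgf21 in the whole body, on a background that is not given in the sources used here. In WT mice the sham muscles (WS) and the denervated muscles (WD) were sequenced, and in Fgf21KO mice likewise (KS for sham and KD for denervated), each group as 1 library made from 4 pooled muscles. According to the labels a 2 mm piece of nerve was taken from the left leg, and the innervated right leg was the control, whereas the methods of the paper describe a longer segment and a sham operation on the other side. Sham and denervated pools may therefore come from the same mice. Because each group was 1 library, no pairwise difference has a replicate check, and intervals on single genes (95%) cover counting error only. The targeted gene itself, Fgf21, was not analysed here, and the genotypes are those of the labels. Total counts over the genes analysed ran from 25249879 in WS to 34141303 in KS. The mitochondrially encoded genes took 27.0% and 30.4% of the counts in the sham libraries and 19.4% and 20.6% in the denervated ones. Of the 7 myofibre markers, 2 were in the count table (Myh1 and Mylpf), and their summed level was 33800 CPM in WS and 31700 in KS, against 20900 in WD and 23100 in KD. In pooled muscle RNA, fewer cells of a type and less RNA per cell cannot be told apart.

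Contracting fibres rebuild ATP from phosphocreatine through creatine kinase, and from ADP through adenylate kinase, which makes ATP and AMP from a pair of ADP molecules. AMP deaminase then converts AMP to IMP and ammonia, and IMP is returned to AMP by adenylosuccinate synthase and adenylosuccinate lyase, which closes the purine nucleotide cycle. Ampd1 is the isoform of adult skeletal muscle, Ampd2 is expressed in many tissues, and Ampd3 was first known as the erythrocyte isoform. Ckm, Ckb and Ckmt2 encode the muscle, brain and sarcomeric mitochondrial creatine kinases, and Slc6a8 carries creatine into the cell.

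Ampd3 rose after denervation, with a higher level in the denervated library of each genotype, and was the gene of the 5 with the largest difference. Ak1 was present at about 2-fold lower levels in the denervated libraries, while Slc6a8 stayed within a log2 ratio of 0.11 of 0 in each comparison of libraries under TMM scaling. Ampd2 and Ckb were weakly expressed and passed neither threshold under this scaling. In the comparison of WD with WS, 1 of the 5 genes was at least 2-fold apart, beside 14.8% of all tested genes. Between KD and KS it was 2 of the 5, beside 13.6%. None of the 5 was 2-fold apart between KS and WS, beside 2.04%, or between KD and WD, beside 1.56%. These comparisons share libraries and are not independent of each other.

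The level of each gene is given as CPM, its count relative to the library total after scaling by edgeR's TMM factors. Ampd3 was at 12.6 CPM in WS and 8.95 in KS (294 and 266 counts), and at 144 CPM in WD and 152 in KD (4688 and 4703 counts). Both denervated libraries were far above both sham libraries. Ampd3 lies at chr7:110768206-110812405 on the plus strand (GENCODE M21, GRCm38), and Rnf141 overlaps it on the minus strand. Rnf141 had 655, 864, 849 and 777 counts in WS, WD, KS and KD and did not pass the test for denervation (adjusted p = 0.243, edgeR's quasi-likelihood test). Whether the counting used the strand is not given in the sources used here.

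**Figure D1:**
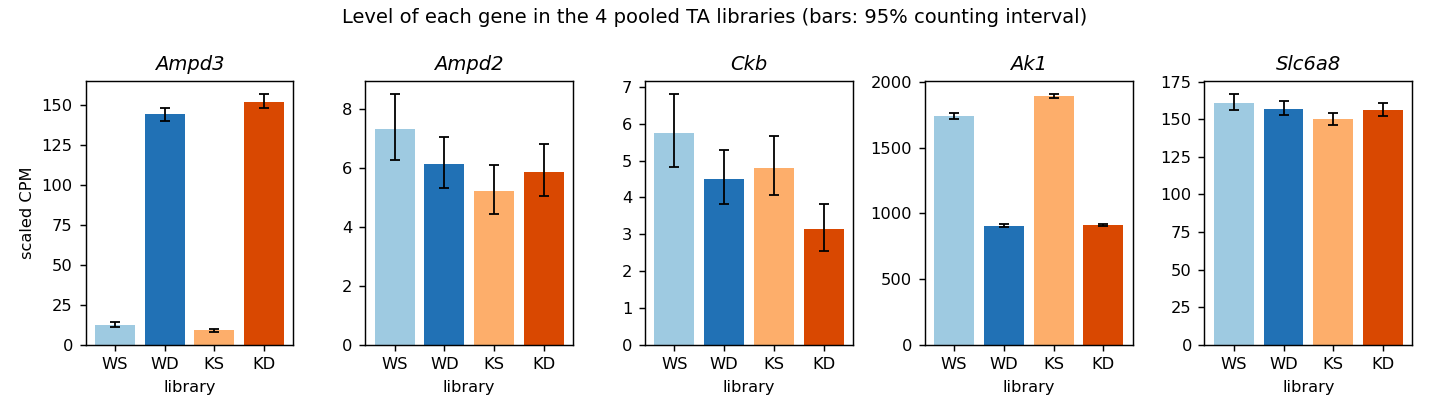
Scaled CPM (y axis, from 0, with its own range in each panel) of the 5 genes in the WS, WD, KS and KD libraries. Bars are the level in 1 pooled library and whiskers its 95% counting interval. Ampd3 stands at 144 and 152 CPM in the denervated libraries against 12.6 and 8.95 in the sham libraries, and Ak1 at 906 and 911 CPM against 1740 and 1890.

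The log2 ratio of Ampd3 was 3.50 in WD vs WS (interval 3.34 to 3.68), an 11.3-fold difference. In KD vs KS it was 4.08 (3.91 to 4.27), a 16.9-fold difference. Of 13084 tested genes, Ampd3 was 53rd from the top in WT (WD vs WS) and 35th in Fgf21KO (KD vs KS). In the additive model over the libraries, which fits genotype and surgery and leaves 1 residual degree of freedom, the log2 fold change for denervation was 3.80 (SE 0.11, adjusted p = 2.58e-16, edgeR's quasi-likelihood test). The spread in this model comes from single pools, so its SE and adjusted p, for each gene in the text, do not measure variation between mice. Of the 5 genes, Ampd3 alone passed both the adjusted p and the 2-fold threshold, which 13% of tested genes passed.

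**Figure D2:**
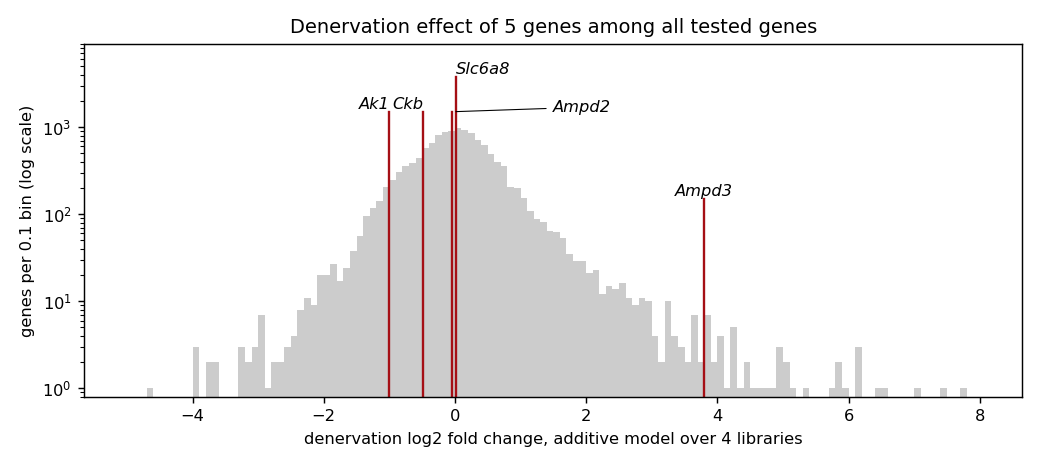
Number of tested genes (y axis, log scale) by the log2 fold change for denervation in the additive model (x axis, bins of 0.1). Red lines mark the 5 genes. Ampd3 at 3.80 is 46th from the top of 13084 genes, Ak1 lies at -0.999 and Slc6a8 at 0.01.

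The 2 denervation ratios of Ampd3 differed by 0.58 on the log2 scale (counting interval 0.33 to 0.82). Ampd3 was lower in KS than in WS (log2 ratio -0.49, -0.74 to -0.25) and nearly level in KD and WD (0.08, 0.02 to 0.14). With 1 library per group, the interaction could not be tested. For genotype, Ampd3 did not pass the test (log2 fold change -0.11, SE 0.10, adjusted p = 0.898, edgeR's quasi-likelihood test). No gene of the 5 passed it, with adjusted p between 0.714 and 0.918, beside 0.573% of all tested genes that passed the adjusted p and 0.168% that passed the fold threshold as well.

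The genes nearest to Ampd3 in pattern were sought among 11315 genes whose mean count was 50 or more, by Euclidean distance of the centred log2 CPM over the 4 libraries. They were Lpin2 (distance 0.191), a phosphatidate phosphatase, Fst (0.215), which encodes the activin and myostatin antagonist follistatin, and Id2 (0.221), an inhibitor of helix-loop-helix factors. Their log2 ratios in WD vs WS were 3.63, 3.75 and 3.41, and those in KD vs KS were 4.06, 4.20 and 3.78.

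Ampd2 was at 7.35 CPM in WS and 5.22 in KS (171 and 155 counts), and at 6.16 CPM in WD and 5.89 in KD (201 and 182 counts). The denervated libraries lay between the sham libraries, and the level was highest in WS. The log2 ratio was -0.25 in WD vs WS (-0.56 to 0.05) and 0.17 in KD vs KS (-0.14 to 0.49). Both intervals include 0, and the additive model gave -0.04 (SE 0.18, adjusted p = 0.859, edgeR's quasi-likelihood test). The sign of that model estimate and of the ratio in WD vs WS (0.03) turned when libraries were scaled by total counts, which moved the median of all genes to 0.29 (WD vs WS) and 0.36 (KD vs KS).

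Ampd2 lies at chr3:108074062-108086651 on the minus strand, where the antisense gene Gm12500, not analysed here, overlaps it. Between the sham libraries, Ampd2 was lower in KS than in WS (-0.49, -0.82 to -0.17), and no difference was detectable between KD and WD at this depth (-0.07, -0.36 to 0.23). The count ratio of Ampd3 to Ampd2 within a library needs no scaling. In the sham libraries it was 1.72 for WS (1.42 to 2.09) and 1.72 for KS (1.40 to 2.11), and in the denervated ones 23.3 for WD (20.2 to 27.0) and 25.8 for KD (22.3 to 30.1). The ratio was the same in both sham libraries to the digits given, although each of the genes was lower in KS than in WS. Ampd3 took 63.2% of the counts on both genes in each sham library, 95.9% in WD and 96.3% in KD.

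Markers of other cells that could hold these isoforms also differed between libraries. Beside them, 52.9% of all tested genes passed the adjusted p for denervation, in either direction, and 13% passed both thresholds. The 6 macrophage or leukocyte markers summed to 19.6, 45.4, 18.7 and 46.5 CPM in WS, WD, KS and KD, and all 6 were higher after denervation by the adjusted p, 4 of them past the fold threshold as well. The 5 erythroid markers in the table summed to 288, 208, 333 and 170 CPM in the same order, and all 5 were lower by the adjusted p, none of them past the fold threshold. The 5 endothelial markers summed to 444, 203, 361 and 193 CPM, and all 5 were lower by the adjusted p, 3 of them past the fold threshold. The 2 Schwann cell markers in the table summed to 34.8, 10.7, 37.9 and 10.1 CPM, and 1 was lower past both thresholds. The part of these cells in the levels of Ampd2, Ampd3 and Ckb was not tested. The 6 fibroblast markers summed to 569, 376, 561 and 385 CPM, and 4 of them were lower by the adjusted p, none past the fold threshold. The 1 adipocyte marker in the table (at most 1.85 CPM) passed neither.

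Ak1 encodes the cytosolic adenylate kinase and lies at chr2:32621758-32635058 on the plus strand. Its level was 1740 CPM in WS and 1890 in KS (40533 and 56243 counts), against 906 CPM in WD and 911 in KD (29551 and 28175 counts). The log2 ratio was -0.94 in WD vs WS (-0.96 to -0.92) and -1.05 in KD vs KS (-1.08 to -1.03), so that Ak1 was just short of 2-fold apart in WT and just past it in Fgf21KO. The additive model gave a log2 fold change of -0.999 (SE 0.08, adjusted p = 1.15e-09, edgeR's quasi-likelihood test). Ak1 therefore passed the adjusted p, as 52.9% of tested genes did, and sat at the fold threshold without reaching it. The call turned with the scaling: TMM factors computed on the tested genes only, or DESeq2's size factors, put Ak1 past the threshold, while its direction held in each alternative (-1.01 to -0.68). The 2 myofibre markers in the table were also lower in the denervated libraries, both by the adjusted p and neither past the fold threshold, and their part in the level of Ak1 was not tested. Between genotypes, Ak1 was slightly higher in KS than in WS (0.12, 0.10 to 0.14) and level in KD and WD (0.01, -0.02 to 0.03).

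Ckb was at 5.76 CPM in WS and 4.81 in KS (134 and 143 counts), and at 4.51 CPM in WD and 3.14 in KD (147 and 97 counts). The lowest library was KD and the highest WS. The log2 ratio was -0.35 in WD vs WS (-0.70 to -0.00) and -0.61 in KD vs KS (-1.0 to -0.24). In the additive model the log2 fold change was -0.48 (SE 0.20), which did not pass the test (adjusted p = 0.0542, edgeR's quasi-likelihood test). That side of the threshold turned with DESeq2's size factors (-0.49, adjusted p = 0.0483), and over the alternatives of this result the adjusted p ran from 0.0483 to 0.511. Ckb was also lower in KD than in WD (-0.51, -0.91 to -0.14), with a model estimate for genotype of -0.39 (SE 0.20, adjusted p = 0.714). Ckb lies at chr12:111669361-111672338 on the minus strand. Fewer than 150 counts lie behind each value.

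Slc6a8 was at 161 CPM in WS and 150 in KS, and at 157 CPM in WD and 156 in KD, and the denervated libraries lay between the sham libraries. The log2 ratio was -0.04 in WD vs WS (-0.10 to 0.03) and 0.06 in KD vs KS (0.00 to 0.12). These ratios rest on 3755 to 5135 counts per library and move with the scaling, to 0.24 and 0.42 with total counts only, where the sign in WD vs WS turned. The model estimate was 0.01 (SE 0.07, adjusted p = 0.894, edgeR's quasi-likelihood test). It was 0.33 (adjusted p = 0.00133) with total counts only and 0.16 (adjusted p = 0.0417) without mitochondrial genes, past the adjusted p but not the fold threshold, under scalings that moved the median of all genes to 0.29 or more and to 0.15 or more. The adjusted p over all alternatives ran from 0.00133 to 0.989. Slc6a8 lies at chrX:73673150-73682502 on the plus strand. It was lower in KS than in WS (-0.11, -0.17 to -0.04) and level in KD and WD (-0.01, -0.07 to 0.05).

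**Figure D3:**
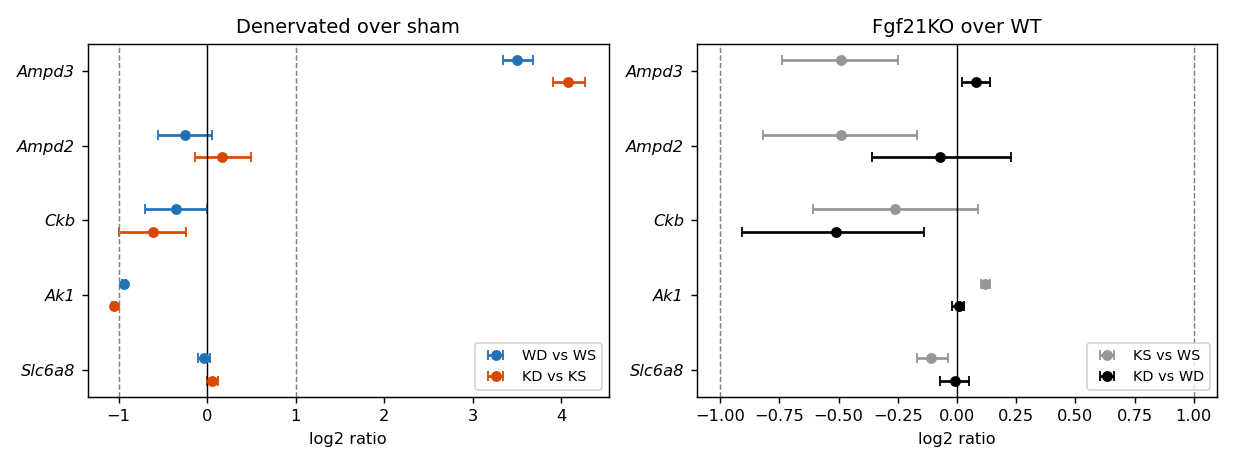
Log2 ratio (x axis) of the 5 genes between pairs of libraries, denervated over sham on the left and Fgf21KO over WT on the right, each panel with its own range. Points are ratios of 1 library to 1 library, whiskers 95% counting intervals and dashed lines the 2-fold thresholds. Ampd3 lies at 3.50 and 4.08 on the left, and Ampd3 and Ampd2 lie at -0.49 in KS vs WS on the right.

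Levels were also compared between genes per kilobase of the longest annotated transcript. In WS, Ak1 was at 835 CPM per kilobase, Slc6a8 at 40.7, Ckb at 3.91, Ampd3 at 3.09 and Ampd2 at 2.01. In WD the order was Ak1 (435), Slc6a8 (39.7), Ampd3 (35.1), Ckb (3.06) and Ampd2 (1.69). In KS the levels were 908 for Ak1, 37.8 for Slc6a8, 3.27 for Ckb, 2.19 for Ampd3 and 1.43 for Ampd2, and in KD 437 for Ak1, 39.4 for Slc6a8, 37.2 for Ampd3, 2.13 for Ckb and 1.61 for Ampd2. Ampd3 thus stood beside Ampd2 and Ckb in the sham libraries and beside Slc6a8 in the denervated ones. Ak1 was the most abundant of the 5 in each library.

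The promoter windows of Ampd3 and Ak1, the genes with the largest differences, and of Ckb are shown for context (RefSeq, GRCm38.p6, the 250 bases before an annotated start, E-box CANNTG on both strands in capitals). The windows lie at chr7:110772354-110772603 on the plus strand for Ampd3, inside the annotated span of the gene, at chr2:32621508-32621757 on the plus strand for Ak1, and at chr12:111672339-111672588 on the minus strand for Ckb.
Ampd3: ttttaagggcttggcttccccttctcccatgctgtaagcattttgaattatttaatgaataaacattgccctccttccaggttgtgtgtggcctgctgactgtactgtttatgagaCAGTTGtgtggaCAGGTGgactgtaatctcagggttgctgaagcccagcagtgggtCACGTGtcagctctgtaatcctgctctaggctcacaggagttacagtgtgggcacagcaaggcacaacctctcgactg
Ak1: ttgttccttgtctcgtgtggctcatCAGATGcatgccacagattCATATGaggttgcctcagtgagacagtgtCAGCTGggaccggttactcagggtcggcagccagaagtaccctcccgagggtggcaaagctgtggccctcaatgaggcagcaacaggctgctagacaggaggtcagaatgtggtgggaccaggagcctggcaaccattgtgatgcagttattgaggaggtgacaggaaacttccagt
Ckb: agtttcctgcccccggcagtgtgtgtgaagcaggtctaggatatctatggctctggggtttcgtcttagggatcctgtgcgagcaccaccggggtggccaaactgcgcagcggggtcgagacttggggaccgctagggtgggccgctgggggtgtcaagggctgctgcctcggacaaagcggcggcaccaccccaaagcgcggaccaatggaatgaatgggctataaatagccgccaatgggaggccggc
The Ampd3 window shown holds 3 E-boxes, the Ak1 window shown 3 and the Ckb window 0, while 66.2% of 32851 such windows of all genes hold at least 1. Ampd3 has another 2 windows, with 1 and 0 E-boxes, and Ak1 another 3, with 1, 2 and 1. Each window of Ampd2, not shown, holds 1 E-box. The windows shown are those with the most E-boxes of each gene, whereas the share of 66.2% is over all windows. A match of letters is a description of the window only.

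The 2 genes of creatine synthesis did not pass both thresholds, which 13% of all tested genes passed. Gatm, which makes guanidinoacetate, was at 104, 100, 115 and 113 counts in WS, WD, KS and KD (log2 fold change for denervation -0.31, SE 0.23, adjusted p = 0.264, edgeR's quasi-likelihood test). Gamt, which methylates it to creatine, was higher in both denervated libraries (221, 580, 352 and 570 counts), with a log2 fold change of 0.76 (SE 0.12, adjusted p = 2.80e-05) that stayed below the 2-fold threshold.

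Of the 3 partners of AMP deaminase in the purine nucleotide cycle (median log2 fold change -0.61), Adssl1, which encodes the adenylosuccinate synthase of muscle, fell after denervation (log2 fold change -1.47, SE 0.08, adjusted p = 2.36e-12, edgeR's quasi-likelihood test), with 32594, 17230, 41626 and 14882 counts. Adss, the other synthase (-0.45, adjusted p = 0.00272), and Adsl, the lyase (-0.61, adjusted p = 3.77e-07), passed the adjusted p at less than 2-fold, and were lower in both genotypes. Of these 3 partners 33.3% passed both thresholds, beside 13% of all tested genes. All 3 were lower by the adjusted p, which 52.9% of all tested genes passed in either direction. The log2 ratios in WD vs WS were 3.50 for Ampd3, -1.41 for Adssl1, -0.44 for Adss and -0.58 for Adsl. For Ampd2, the other AMP deaminase described, the ratio was -0.25, with an interval (-0.56 to 0.05) that included 0.

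Of 13 other adenylate, guanylate and nucleoside diphosphate kinases, 2 rose, 1 fell and 10 did not pass both thresholds, with a median of 0.47. That is 23.1% past both thresholds, beside 13% of all tested genes. By the adjusted p alone, which 52.9% of all tested genes passed, 8 were higher and 4 lower. Nme4, a mitochondrial nucleoside diphosphate kinase, rose with a log2 fold change of 2.35 (SE 0.29), from 19 counts in WS to 174 in WD, and Nme7 with 1.03 (SE 0.29). Ak6 fell with -1.15 (SE 0.10). Ak4 and Ak3, named after their values were seen, lay on opposite sides of 0, with log2 fold changes of 0.81 and -0.58.

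Of 18 genes of AMP and adenosine breakdown and salvage, 3 rose and none fell past both thresholds, which is 16.7% beside 13% of all tested genes, with a median of -0.08. By the adjusted p alone, which 52.9% of all tested genes passed, 5 were higher and 6 lower. The 3 genes that rose past both thresholds were Hprt, which salvages hypoxanthine to IMP (1.54, SE 0.09), and the nucleotidases Nt5c (1.14, SE 0.20) and Nt5c2 (1.0, SE 0.13). Enpp1 had a log2 ratio of -1.02 in WT (WD vs WS) and -0.25 in Fgf21KO (KD vs KS), a difference that was not tested, and did not pass both thresholds in the model (-0.62, adjusted p = 0.0177, edgeR's quasi-likelihood test).

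Among 13 genes of de novo purine synthesis, Impdh1, which draws IMP towards GTP, rose (1.53, SE 0.10), and Gmpr, which returns GMP to IMP, fell (-1.07, SE 0.07), with a median of -0.04. These genes were 15.4% of their list, close to the 13% of all tested genes that passed both thresholds. Of 9 genes of mitochondrial adenine nucleotide and phosphate exchange, Slc25a24 rose (2.03, SE 0.16), and Slc25a25 (-1.13, SE 0.10) and the muscle ADP/ATP carrier Slc25a4 (-1.03, SE 0.08) fell. Slc25a5, another ADP/ATP carrier, was higher without reaching the fold threshold in the model (0.91, SE 0.08). Its log2 ratio was 1.06 in WD vs WS, past 2-fold, and 0.77 in KD vs KS. The median of these 9 genes was -0.34. Of this list 33.3% passed both thresholds, beside 13% of all tested genes. Over the 57 genes of these lists, each counted once, 7 rose and 5 fell, which is 21.1% beside 13% of all tested genes, with a median log2 fold change of -0.15 beside 0.01 over all. None of the 57 passed the adjusted p for genotype.

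**Figure D4:**
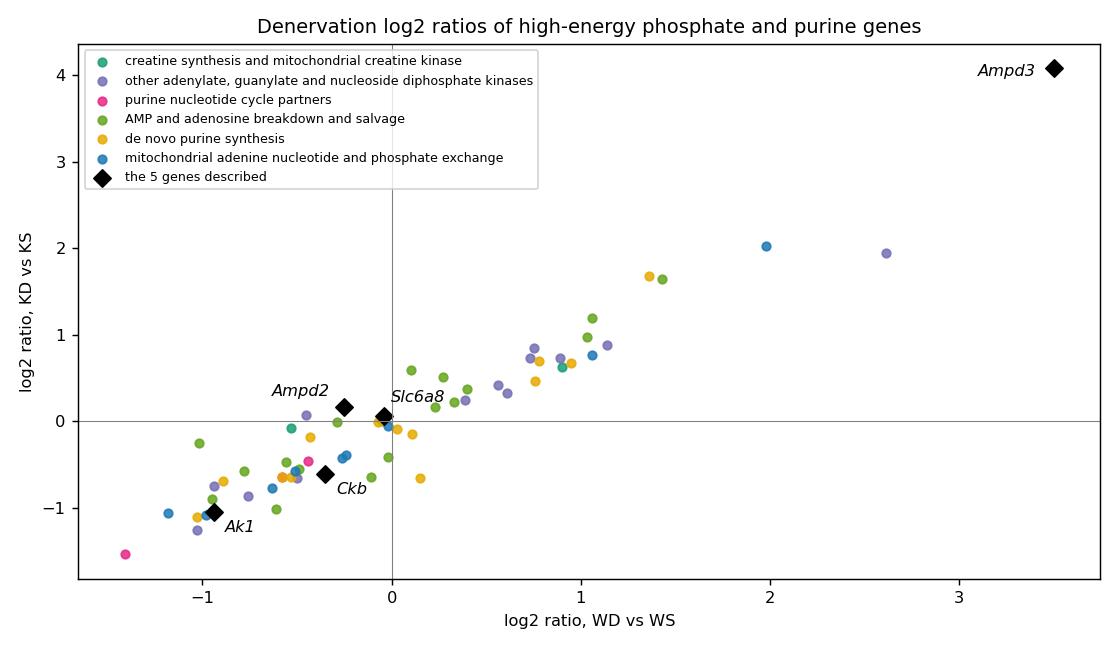
Log2 ratio in WD vs WS (x axis) against that in KD vs KS (y axis) for the 5 genes (black diamonds) and the genes of the pathway lists (circles, coloured by list). Each point is 1 gene. Ampd3, at 3.50 and 4.08, lies beyond each of the list genes, whose largest ratio in WD vs WS is 2.61 for Nme4.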

How the data were processed

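TA muscle RNA was sequenced from TruSeq Stranded mRNA libraries, 1 pooled library per group. The authors deposited a table of raw counts per gene and a second table, on a log2 scale, whose deposited log2 values come from counts multiplied by a library factor, with 1 added before the log. The submitters' processing notes name GRCm39 and FastQC, and the aligner and counter are not given in the sources used here. Positions and transcript lengths were taken by symbol from GENCODE M21 (GRCm38).

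The tools were edgeR 4.0.16 and DESeq2 1.42.0 (R 4.3.3), scipy 1.17.1 and pandas 2.3.3 (Python 3.11.15). Libraries were scaled with TMM factors from all 13825 rows (0.9216 for WS, 1.119 for WD, 0.8702 for KS, 1.115 for KD). Factors from the tested genes had been computed first, and the factors from all rows, which follow an earlier analysis of these data, were adopted after the values under both were known. The call of Ak1 differs between them. Pairs were compared by log2 CPM ratios (prior count 2), called at an absolute log2 ratio of at least 1, with 95% exact conditional binomial intervals. The additive model (genotype and surgery, edgeR's quasi-likelihood test, Benjamini-Hochberg over 13084 genes) called genes at an adjusted p below 0.05 and an absolute log2 fold change of at least 1. A count of 3 stands for 0.092 CPM (WD) to 0.129 CPM (WS). The scripts were tested on simulated data.

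The members and lists were chosen with earlier results of these data known. Named were the members in the table, Gatm and Gamt, the 2 highest and 2 lowest genes of each pathway list among those 2-fold apart in WD vs WS, and the 3 genes nearest to Ampd3. Adss, Adsl, Ak3, Ak4, Nt5c2, Slc25a4 and Rnf141 were named after their values were seen. Results were recomputed with size factors from DESeq2, with total counts with and without mitochondrial genes, TMM factors from the tested genes (added after seeing the data), no filter, a filter at a mean of 50 counts, a prior of 0.125 or of 5, the deposited log2 values, DESeq2's Wald test, the tested factor alone, and no fold threshold. Ratios to Ampd1 and Ckm had been planned, and that of Ampd3 to Ampd2 was used in their place.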

Additional observations from a re-analysis of the deposited data

Results flagged for a closer look

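The denervation ratios of Ampd2 had opposite signs in the genotypes, -0.25 in WT and 0.17 in Fgf21KO, a difference of 0.42 on the log2 scale (counting interval -0.00 to 0.85). Those of Slc6a8 were -0.04 and 0.06, a difference of 0.10 (0.01 to 0.18). With 1 pooled library per group, neither difference was tested. For Ampd2 the opposite signs were lost with total counts only (0.03 and 0.52) and held in the other alternatives, as without mitochondrial genes (-0.11 and 0.34). For Slc6a8 they were lost both with total counts only (0.24 and 0.42) and without mitochondrial genes (0.10 and 0.23).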

How the results depend on the processing

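No paired analysis was possible because no group has a replicate number, each being a single pool. Leaving out a library would leave the additive model no residual degree of freedom and was not run. The number of the 5 genes at least 2-fold apart in KD vs KS was 2, and was 1 with total counts only and with total counts without mitochondrial genes. The number called for denervation was 1, and was 2 with DESeq2's size factors, with TMM factors from the tested genes, with DESeq2's Wald test, with the tested factor alone and with no fold threshold. Ak1 was the gene added each time, and in the main setting it was at -0.999, just short of the fold threshold. With no fold threshold, its adjusted p alone set the call. Ampd3 was called under each alternative, with a log2 fold change between 3.78 and 4.11. The sign turned for Ampd2 under denervation with total counts only (0.27) and without mitochondrial genes (0.11), and for Ampd3 under genotype with the tested factor alone (0.04); none of these passed the test. Total counts only moved the median over all tested genes in the denervation ratios to 0.29 (WT) and 0.36 (Fgf21KO), and leaving out the mitochondrial genes to 0.15 and 0.17. Of the other values, 47 of the counts of genes, 167 of the single ratios and 82 of the model estimates kept their call or stayed within the counting interval, and 13 single ratios moved beyond it. By the adjusted p alone, Ckb under denervation passed with size factors from DESeq2, and Slc6a8 with total counts with and without mitochondrial genes. Ampd2 and Ckb, at 97 to 201 counts per library, are limited by depth.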
